A study of Bos taurus with 53 samples.

Results

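Extraembryonic tissue of day 14 bovine embryos was compared between embryos whose oocytes had matured with a low, physiological mixture of fatty acids (BASAL) and embryos whose oocytes had matured without any (CONTROL). Libraries were taken by their tissue and medium labels and by a minimum of 10000 summed exon reads, which left 17 of the 53 libraries of the series: 13 BASAL and 4 CONTROL. A further BASAL extraembryonic library, replicate 7, held 9810 reads and was left out. The measurement is a count of mRNA sequencing reads in the exons of each gene.

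All oocytes matured in the same serum-free medium with albumin free of fatty acids, and were fertilised in vitro. The embryos grew to blastocysts in a culture medium that contained serum, and were then transferred to recipient cows. CONTROL medium held neither fatty acids nor solvent. BASAL medium held stearic acid at 28 µM, palmitic acid at 23 µM and oleic acid at 21 µM, dissolved in ethanol at a final 0.45%. Fatty acids and ethanol therefore cannot be told apart in this comparison. Libraries of a further medium, HIGH PA, with palmitic acid at 150 µM and the other components of BASAL, served to estimate the spread between embryos. The CONTROL embryos were 3 males of tubular shape (replicates 1 to 3) and 1 ovoid female (replicate 4). All 4 came from a single flush of cow 813, so medium and flush cannot be told apart for CONTROL. The BASAL embryos were 8 males and 5 females, 9 tubular and 4 ovoid, from 7 cows, and 3 of them (replicates 3, 4 and 8) came from cow 813 in another flush. The labels give no flush dates, so a flush was taken to be all embryos that 1 cow carried in 1 medium. Embryos of a flush shared a uterus, and p-values measure the spread between embryos only.

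At this stage the bovine conceptus elongates before it attaches to the uterus. Its outer layer, the trophectoderm, secretes interferon tau, the signal by which a pregnancy is recognised in ruminants. The hypoblast lines the inside of the trophectoderm and secretes apolipoproteins and basement membrane proteins. Free fatty acids reach the oocyte through follicular fluid. Inside cells they can be oxidised in mitochondria and peroxisomes, stored as triglyceride in lipid droplets, or sensed by nuclear receptors such as PPARG. Palmitic acid in excess is known to stress the endoplasmic reticulum, which oleic acid can counteract.

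The labelled tissue was checked against markers of its cell types. Levels are given as CPM, the reads of a gene scaled to the same total of exon reads in every library. The summed level of 17 trophectoderm genes was 15662 to 24420.2 CPM in BASAL and 15392 to 28582 CPM in CONTROL libraries. The 26 hypoblast and yolk sac genes summed to 3712 to 11504 and 7358 to 11827 CPM. Epiblast genes, which mark the embryonic disc, summed to 14.2 to 119.9 CPM in BASAL and 47.4 to 68.4 CPM in CONTROL, with SOX2 at 0 reads in all 17 libraries. Genes of maternal and blood cells summed to 1.02 to 5.32 and 2.74 to 3.89 CPM, with PTPRC, CD2, OXTR and HBB at 0. KLF5, of the trophectoderm list, and AFP, TTR and CUBN, of the hypoblast and yolk sac list, were at 0 reads in all 17 libraries too. An exact 0 is not always a silent gene in this table, since the ribosomal protein gene RPL23 was also listed at 0 in every library. Depth was 3101968 to 11617942 exon reads in BASAL and 5145219 to 8711638 in CONTROL.

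No transcript was called different between BASAL and CONTROL extraembryonic tissue. Of 11004 genes tested 0 (0%) had an adjusted p under 0.05, and the lowest adjusted p was 0.887 (edgeR quasi-likelihood F test with medium and sex as terms, Benjamini-Hochberg adjustment). At an unadjusted p under 0.05 there were 344 genes (3.13%), of which 211 (1.92%) were higher and 133 (1.21%) lower in BASAL. DESeq2 called 1 gene, NPSR1, and limma-voom, with embryos of a flush treated as correlated, called 0, with 453 and 22 genes at an unadjusted p under 0.05. The median log2 fold change was 0.01, with a median SE of 0.256. The 95% confidence interval had a median half-width of 0.53 on the log2 scale. For 7835 genes (71.2%) it lay within a 2-fold change either way, and for 3414 (31%) within 1.5-fold. Changes beyond these bounds lie outside those genes' intervals, which hold the spread between embryos but not a difference between flushes.

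**Figure D1:**
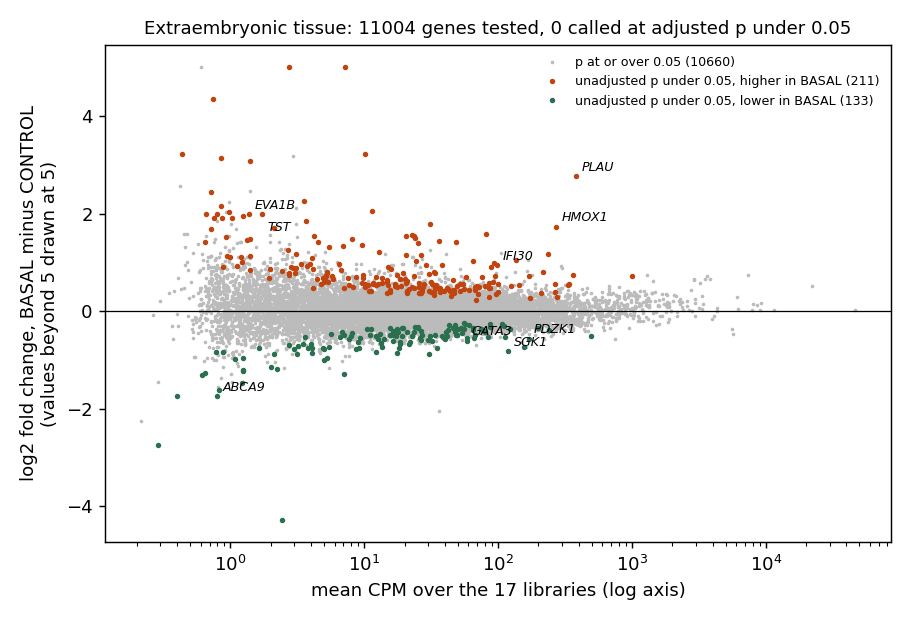
Each point is a gene, with its mean CPM over the 17 libraries on a log axis and its fitted log2 fold change, BASAL minus CONTROL, with values beyond 5 either way drawn at 5. Of 11004 genes 211 (red) were higher and 133 (green) lower at an unadjusted p under 0.05, and 0 passed the adjusted threshold.

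All 13 BASAL libraries were above all 4 CONTROL libraries for 8 genes (0.0727% of those tested), and below all of them for 15 (0.136%). The lowest p among higher genes belonged to EVA1B, a small membrane protein gene (ENSBTAG00000014358, chromosome 3, 110118544 to 110120286, UMD3.1). EVA1B had 0.412, 0.334, 0.344 and 0.583 CPM in CONTROL replicates 1 to 4, and 0.634, 1.26 and 5.16 CPM as lowest, median and highest in BASAL. These CONTROL levels rested on 2 or 3 reads a library, so the gap of 1.99 on the log2 scale (SE 0.511, edgeR p = 0.000589, adjusted p = 0.887) carries a wide counting error. TST, a mitochondrial sulfur transferase (chromosome 5, 75810520 to 75817101), stood likewise at 1 to 5 reads in CONTROL. Its level was 0.530 ± 0.229 CPM in CONTROL (SD, n = 4) and 2.09 ± 0.896 in BASAL (SD, n = 13).

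Better covered were UBALD1 and IFI30. UBALD1 (chromosome 25, 3744166 to 3749205) had 59.5, 47.2, 45.3 and 66.7 CPM in the CONTROL libraries. In BASAL it ran from 71.6 through a median of 83.8 to 216 CPM, with no overlap of the groups. The log2 fold change was 0.91 (SE 0.255, 95% interval 0.39 to 1.44, edgeR adjusted p = 0.887). IFI30, a thiol reductase of lysosomes (chromosome 7, 4981194 to 4984553), had 65.2, 56.3, 65.3 and 60.8 CPM in CONTROL and 79.3, 94.0 and 194 CPM as lowest, median and highest in BASAL, again without overlap. Its log2 fold change was 0.94 (SE 0.273). Of the other genes whose BASAL libraries all lay above CONTROL, chosen here after their values were seen, AXIN1, a scaffold that restrains WNT signalling, had 71.8 ± 15.5 against 53.0 ± 4.24 CPM. TJAP1, a tight junction protein gene, had 4.60 ± 1.27 against 2.57 ± 0.210 CPM, and PKLR, a pyruvate kinase, 1.14 ± 0.361 against 0.510 ± 0.133. All of these comparisons had an adjusted p of 0.887, so none passed the test across genes.

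Among the lower genes SGK1 stood out by level. SGK1 encodes a kinase induced by glucocorticoids that regulates ion channels and transporters (ENSBTAG00000004269, chromosome 9, 73305312 to 73310869). It had 176, 208, 157 and 187 CPM in CONTROL replicates 1 to 4, and 41.2, 98.1 and 146 CPM as lowest, median and highest in BASAL. All 13 BASAL libraries were thus below the lowest CONTROL library. The log2 fold change was -0.81 (SE 0.231, 95% interval -1.29 to -0.34, edgeR p = 0.00158, adjusted p = 0.887). PDZK1, a scaffold of transporters at the apical membrane (chromosome 3, 21755126 to 21801218), had 211, 220.2, 204 and 269 CPM in CONTROL and 103, 148 and 213 CPM in BASAL, where 12 of 13 libraries were below all CONTROL libraries. WDCP, a WD-repeat protein gene (chromosome 11, 75071678 to 75078888), had the lowest p of all genes (edgeR p = 0.000302), with 9.46, 6.51, 8.26 and 9.91 CPM in CONTROL and 2.42, 4.04 and 6.98 CPM in BASAL. SGO1, which protects the cohesion of sister chromatids, had 44.004 ± 5.03 CPM in CONTROL and 30.4 ± 6.73 in BASAL.

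The remaining lower genes of lowest p were at low levels. ZNF182 and TRIM52 were below CONTROL in all 13 BASAL libraries, at 1.58 ± 0.627 against 3.38 ± 0.571 CPM and 3.26 ± 0.762 against 5.63 ± 1.08 CPM. PMCH, the gene of a neuropeptide precursor and chosen here after its values were seen, was below in all 13 as well, at 0.514 ± 0.435 against 1.83 ± 0.354 CPM. ABCA9, a lipid-associated transporter of the ABC family, had the largest difference of these by the fit (log2 fold change -1.75, SE 0.469). Only 6 of 13 BASAL libraries of ABCA9 were below all CONTROL libraries, since CONTROL replicate 2 had 0.501 CPM and the others 2.06 to 2.33. PIH1D2, ASTE1 and GPM6B had log2 fold changes of -1.23, -0.88 and -1.47.

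**Figure D2:**
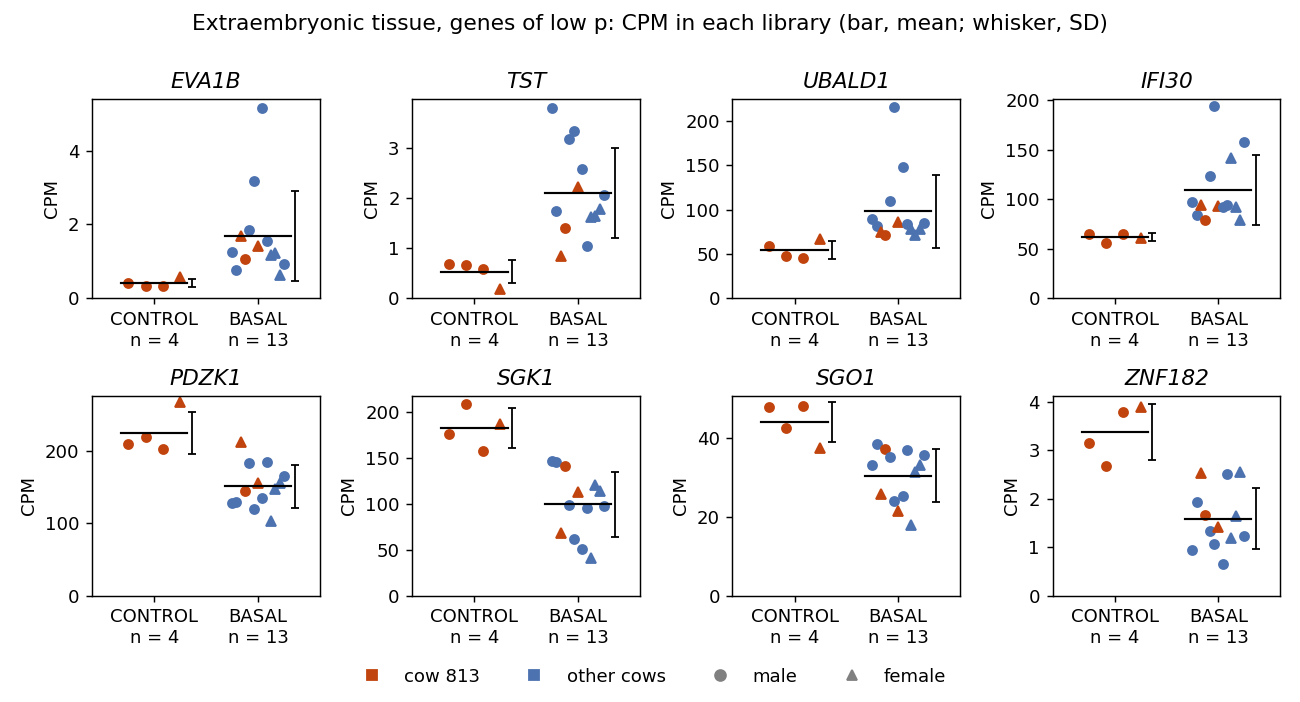
CPM of 8 genes of low p in each of the 4 CONTROL and 13 BASAL libraries on linear axes from 0; horizontal bars are means, whiskers SDs, red points embryos of cow 813, circles males and triangles females. UBALD1 and IFI30 are higher and SGK1 and ZNF182 lower in every BASAL library than in every CONTROL library.

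PLAU had a large difference by the fit at a high level, and its BASAL levels varied widely between recipient cows. PLAU encodes urokinase, a secreted protease that activates plasminogen (ENSBTAG00000005947, chromosome 28, 29964982 to 29971029). CONTROL embryos of cow 813 had 59.0, 60.3, 63.4 and 105 CPM. The 3 BASAL embryos of the same cow, replicates 3, 4 and 8, had 859, 650.1 and 845 CPM. BASAL embryos of cow 66 had 1195 and 681 CPM, that of cow 72 had 766 and that of cow 25 had 432. BASAL embryos of cow 12 had 296, 86.9 and 132 CPM, that of cow 13 had 111, and those of cow 7 had 86.5 and 42.2. Of the 13 BASAL libraries 10 were above all CONTROL libraries and 1 was below all of them. The log2 fold change over all libraries was 2.77 (SE 0.878, 95% interval 0.96 to 4.57, edgeR p = 0.00402, adjusted p = 0.887).

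Within cow 813, where the recipient is the same but the flush is not, 3 BASAL embryos were compared with 4 CONTROL embryos, with medium alone as a term. In that fit 2 of 10491 genes (0.0191%) were called, PLAU and TRIB1, both higher in BASAL, and 720 (6.86%) had an unadjusted p under 0.05. PLAU had a log2 fold change of 3.51 (SE 0.219, edgeR adjusted p = 0.000382). TRIB1, a pseudokinase that directs proteins to degradation (chromosome 14, 16353387 to 16361545), is named here because of this call. TRIB1 had 31.8, 30.05, 32.7 and 36.9 CPM in CONTROL and 88.2, 89.4 and 118 CPM in the BASAL embryos of cow 813 (log2 fold change 1.64, SE 0.152, edgeR adjusted p = 0.00669). In BASAL embryos of other cows TRIB1 ran from 16.2 to 319 CPM. The BASAL embryos of cow 813 were 2 females and 1 male, against 3 males and 1 female in CONTROL. With sex as a further term, added after seeing the data, 3 genes (0.0286%) were called and 991 (9.45%) had an unadjusted p under 0.05. The calls were PLAU (log2 fold change 3.27, SE 0.0973, edgeR adjusted p = 3.91e-06), TRIB1 (1.53, SE 0.143, edgeR adjusted p = 0.0138) and CDKN1A, an inhibitor of the cell cycle (1.92, SE 0.157, edgeR adjusted p = 0.00709). Medium and flush cannot be told apart within this cow. All CONTROL libraries were read on lane 4, as was BASAL replicate 3, which had 859 CPM of PLAU and 88.2 CPM of TRIB1. BASAL replicates 4 and 8 were read on lanes 3 and 8, and the part of lane in these calls was not tested.

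Several stress-related genes of low p were likewise high in BASAL embryos of cow 813 and low in those of cow 7. HMOX1, which degrades heme, had 104, 72.1, 81.3 and 149.7 CPM in CONTROL and 604, 207 and 538 CPM in BASAL embryos of cow 813, while BASAL embryos of cow 7 had 91.2 and 73.2. CDKN1A, which p53 induces, had 7.68, 9.51, 5.97 and 22.4 CPM in CONTROL. In BASAL embryos CDKN1A had 79.2, 28.4 and 82.8 CPM for cow 813 and 13.7 and 6.71 for cow 7. MAFF, a small Maf transcription factor, had 47.1, 30.9 and 58.8 CPM for cow 813 and 9.52 and 3.79 for cow 7, against 5.17 to 13.2 in CONTROL. FOSL1, a component of the AP-1 transcription factor, had 51.2, 22.2 and 63.3 CPM for cow 813, and 6.08 to 21.8 in CONTROL. The pattern was not particular to these cows. BASAL embryos of cow 66 had 1217 and 280 CPM of HMOX1, 87.4 and 45.8 of CDKN1A, 46.7 and 36.4 of MAFF, and 56.5 and 58.0 of FOSL1. The BASAL embryo of cow 13 had 91.4, 9.61, 11.2 and 5.03 CPM of these genes. Over all libraries the log2 fold changes were 1.73 (SE 0.656) for HMOX1, 1.79 (SE 0.629) for CDKN1A, 1.57 (SE 0.507) for MAFF and 1.39 (SE 0.585) for FOSL1, with 0 of these called in the fit over all cows. PLK3, a kinase of stress responses, and PRSS22, a serine protease, had 27.9 ± 26.6 against 10.2 ± 1.32 CPM and 28.2 ± 22.8 against 10.5 ± 2.98 CPM, with BASAL replicate 6 of cow 66 highest for both, at 109 and 98.2 CPM.

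**Figure D3:**
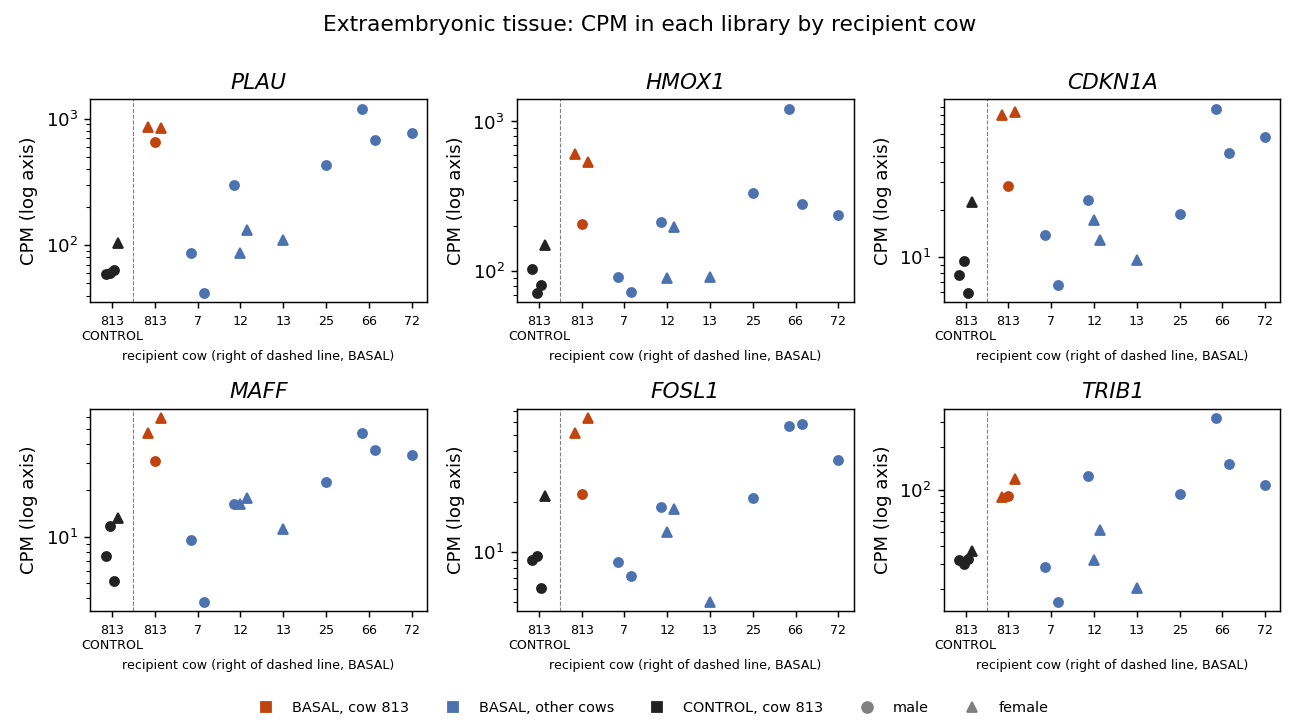
CPM of 6 genes on log axes in each library, by recipient cow, with the 4 CONTROL embryos of cow 813 left of the dashed line and the 13 BASAL embryos right of it; circles are males and triangles females. For PLAU and TRIB1 the 3 BASAL embryos of cow 813 lie above the 4 CONTROL embryos of that cow, while BASAL embryos of cow 7 lie near or below them.

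The spread was larger over all BASAL libraries than within flushes. The median over genes of the SD of log2 CPM was 0.231 among the 4 CONTROL libraries of their flush and 0.225 among the 3 BASAL libraries of cow 813. It was 0.321 within the 4 BASAL flushes that had 2 or more embryos (10 libraries, pooled), and 0.457 among all 13 BASAL libraries. Spearman correlations across genes between pairs of libraries are given as a description, since all pairs share the same genes. CONTROL pairs had a median of 0.979 (6 pairs) and BASAL pairs of the same cow 0.978 (8 pairs). Pairs of a BASAL and a CONTROL embryo had 0.977 within cow 813 (12 pairs) and 0.974 between cows (40 pairs). BASAL pairs from different cows had the lowest median, at 0.956 (70 pairs). BASAL replicates 5, 6 and 11 carry a mark in their column names, described below, which no CONTROL library and no BASAL library of cow 813 has. These marked libraries enter the spread of all BASAL libraries and the pairs between cows, and replicates 5 and 6 also enter the pooled flushes. The part of the mark in these values was not tested. In limma-voom the consensus correlation of embryos of a flush was 0.416. With counts summed per flush, 15 of 11945 genes had an unadjusted p under 0.05 and 0 were called.

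No gene of the trophectoderm was called. Of 15 tested 8 had a log2 fold change above 0 and the median was 0.13. Over all genes 5686 of 11004 were above 0, with a median of 0.01. A mark in the column names is carried by BASAL replicates 5, 6 and 11 and by 4 HIGH PA libraries. Without these marked libraries 6 of 15 were above 0 (median -0.03), beside 5535 of 10853 genes in that fit. GATA3, a factor of trophectoderm identity (chromosome 13, 15984601 to 16002940), had 76.3, 86.0, 71.9 and 83.2 CPM in CONTROL and 14.3, 56.8 and 79.9 CPM as lowest, median and highest in BASAL, with 11 of 13 libraries below all CONTROL libraries (log2 fold change -0.60, SE 0.222, edgeR p = 0.0115). ETS2, a factor that drives interferon tau promoters, lay the other way, with 154 ± 80.7 CPM in BASAL and 78.7 ± 5.85 in CONTROL (log2 fold change 1.05, SE 0.402). IFNT2, an interferon tau gene of a family with near-identical copies among which reads can be split, had 2875, 4101, 2760.1 and 659 CPM in CONTROL. The female ovoid embryo was lowest there, and BASAL libraries ran from 1851 through 2941 to 4825 CPM. The log2 fold change of IFNT2 was 0.64 (SE 0.656, 95% interval -0.71 to 1.99). Of 6 genes of the interferon response tested, 2 were above 0, and 8 of the 22 in the table were at 0 reads in all 17 libraries. STAT2, which carries the interferon signal to the nucleus, had a log2 fold change of -0.31 (SE 0.249).

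Hypoblast and yolk sac genes were mostly above 0 in the fit: 17 of 20 tested, with a median log2 fold change of 0.33 and 0 called. Higher at an unadjusted p under 0.05 were 3 of them, APOE, SOX17 and APOM, the last pair named here after their values were seen. APOE, a lipid carrier protein, had 178, 137, 135 and 134 CPM in CONTROL and 118, 211 and 437 CPM in BASAL, where 8 of 13 libraries were above all CONTROL libraries (log2 fold change 0.80, SE 0.335). SOX17, an endoderm factor, had 10.7 ± 5.54 against 6.59 ± 1.64 CPM, and APOM, another apolipoprotein, 4.23 ± 1.85 against 2.22 ± 0.227 CPM. GATA4, a factor of hypoblast identity, had 18.02 ± 7.25 CPM in BASAL and 13.7 ± 2.03 in CONTROL (log2 fold change 0.45, SE 0.283). The summed level of the list ran from 3712 to 11504 CPM in BASAL and from 7358 to 11827 CPM in CONTROL, so it was not above CONTROL as a range. In bulk tissue, a change in the number of cells of a type and a change in RNA per cell cannot be told apart. Within cow 813 and its flushes, 9 of 18 hypoblast genes tested were above 0, with a median of 0.09, and with cow as a replicate block 14 of 20, with a median of 0.10. Of all genes tested, 5295 of 10491 and 5531 of 11004 were above 0 in these fits. All CONTROL embryos came from cow 813, so the block fit also rests on that cow for CONTROL. The fits are therefore not separate checks, here or for the lists below. Of the other lineages 3 epiblast and 3 streak and mesoderm genes passed the filter. UTF1, the epiblast gene of lowest p, stood at a log2 fold change of 0.68 (SE 0.606), and MSX1, that of the mesoderm list, at 1.28 (SE 0.884).

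No gene of fatty acid uptake or oxidation was called. Of 9 uptake genes tested 0 were called, 4 were above 0 and the median log2 fold change was -0.00. With cow as a replicate block 7 of 9 were above 0 (median 0.36), and within cow 813 likewise 7 of 9 (median 0.15). The 95% interval lay within 1.5-fold for 1 of the 9. SLC27A3, an acyl-CoA synthetase of the fatty acid transport family, had the lowest p, with 9.44 ± 3.58 CPM in BASAL and 6.67 ± 1.199 in CONTROL. Of 25 oxidation genes 13 were above 0, with a median of 0.03, and within cow 813 18 of 24, with a median of 0.08. For 19 of the 25 the 95% interval lay within 2-fold. ACOX3, a peroxisomal oxidase of branched acyl chains, had 1.65, 1.17, 1.26 and 1.94 CPM in CONTROL and 1.15, 2.87 and 4.10 CPM in BASAL (log2 fold change 0.83, SE 0.300, edgeR p = 0.0105). Of 13 synthesis genes 6 were above 0 (median -0.04), and 9 of 13 with cow as a replicate block (median 0.27). FASN, fatty acid synthase, had 819, 733, 776 and 627 CPM in CONTROL and 348, 902 and 1577 in BASAL, where 10 libraries were above and 3 below all CONTROL libraries (log2 fold change 0.37, SE 0.187).

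Storage and sensing of lipid were likewise without a call. Among 21 lipid droplet genes 16 were above 0, with a median of 0.16. DGAT1, which makes triglyceride, had 14.3, 14.4, 10.9 and 21.4 CPM in CONTROL and 15.7, 20.6 and 34.6 CPM in BASAL (log2 fold change 0.63, SE 0.255, edgeR p = 0.0201). PLIN2, the main coat protein of lipid droplets, had 71.2, 69.4, 72.8 and 102 CPM in CONTROL. In BASAL PLIN2 ran from 39.4 through 66.7 to 112 CPM, a log2 fold change of -0.02 (SE 0.361, 95% interval -0.76 to 0.72). In BASAL embryos of cow 813 PLIN2 had 111, 108 and 112 CPM, above all 4 CONTROL embryos of that cow, with a log2 fold change of 0.53 (SE 0.143, edgeR adjusted p = 0.364). Of 11 PPAR and RXR genes, 5 were above 0 (median -0.01). The number above 0 was 9 of 11 without the marked libraries (median 0.17), within cow 813 (median 0.25) and with cow as a replicate block (median 0.22), with 0 called in each. PPARG, the receptor that drives fat storage, had 15.4, 33.2, 18.5 and 22.9 CPM in CONTROL and 5.05, 20.6 and 35.6 CPM in BASAL (log2 fold change -0.14, 95% interval -1.31 to 1.03). RXRB, a partner of these receptors, had a log2 fold change of 0.28 (SE 0.150).

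Of 28 genes of cholesterol synthesis, uptake and its SREBP control 21 were above 0, with a median log2 fold change of 0.18 beside 0.01 for all genes, and 0 were called. SREBF1, a master factor of lipid synthesis, had 31.8, 38.4, 42.2 and 45.7 CPM in CONTROL and 27.3, 57.1 and 147.7 CPM in BASAL (log2 fold change 0.70, SE 0.306, edgeR p = 0.0295). MVK, mevalonate kinase, had 34.2 ± 12.9 CPM in BASAL and 23.4 ± 2.49 in CONTROL. Without the marked libraries 24 of 28 were above 0, within cow 813 25, and with cow as a replicate block 26, with medians of 0.23, 0.17 and 0.30. Ethanol was present in BASAL medium and absent from CONTROL medium. Of 9 genes of ethanol and aldehyde metabolism tested 7 were above 0 (median 0.09), and 3 of the 16 in the table, ADH7, ALDH3A1 and CYP2E1, were at 0 reads. ALDH7A1, an aldehyde dehydrogenase, had 325, 337, 331 and 179.6 CPM in CONTROL and 166, 219.8 and 319 CPM in BASAL (log2 fold change -0.38, SE 0.178, edgeR p = 0.0440).

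**Figure D4:**
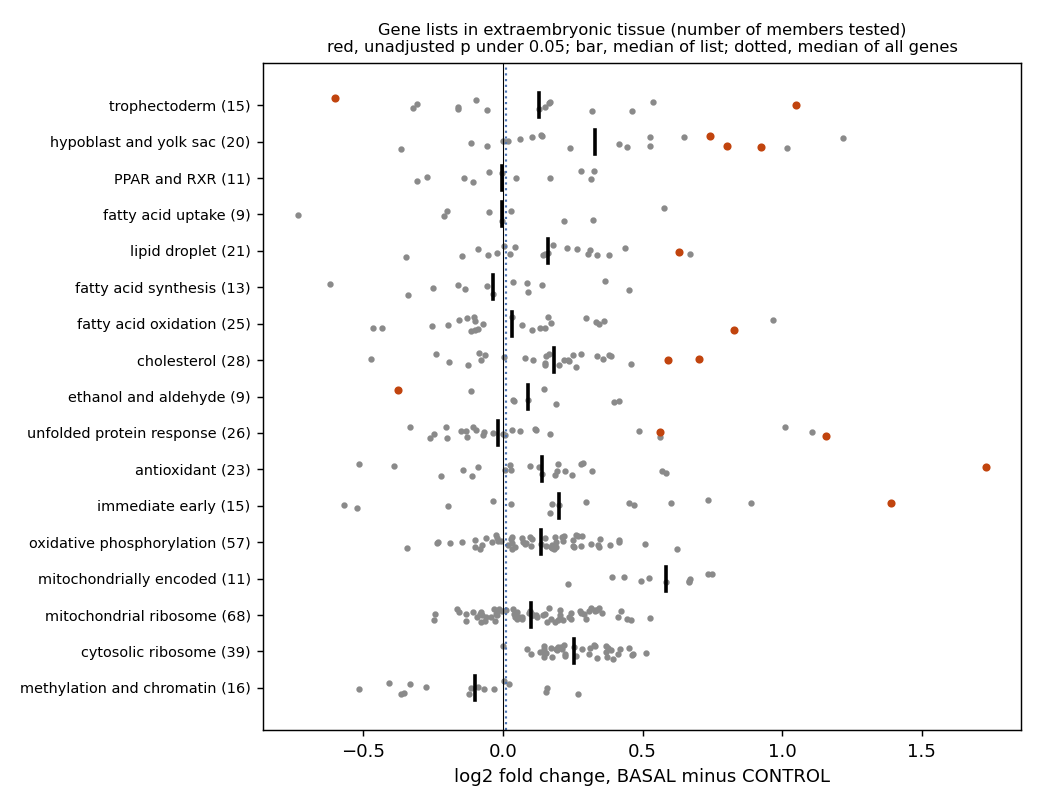
Log2 fold changes, BASAL minus CONTROL, of the tested members of 17 gene lists; each point is a gene, red at an unadjusted p under 0.05, bars are list medians and the dotted line is the median of all genes (0.01). The mitochondrially encoded and cytosolic ribosome lists lie to the right of 0, at medians of 0.58 and 0.26, and 0 genes of any list were called.

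Transcripts encoded by mitochondrial DNA were above 0 for 11 of 11 genes, with a median log2 fold change of 0.58, and their distribution over libraries was uneven. They made up 3.41% to 4.01% of exon reads in the 4 CONTROL libraries. In BASAL replicates 5, 6 and 11 the share was 9.48%, 4.89% and 17.6%, and in the other 10 BASAL libraries 2.50% to 4.94%. The column names of these 3 libraries carry a mark, a 2, that no CONTROL library has, and whose meaning the labels do not give. Mean shares were 5.28% ± 4.11 in BASAL and 3.68% ± 0.277 in CONTROL (exact two-sided permutation test, 2380 splits, n = 13 and 4, p = 0.487, adjusted p over 6 library measures 0.994). ND3, a subunit of complex I, had 899, 787, 922 and 851 CPM in CONTROL and 656, 996 and 5190.3 CPM as lowest, median and highest in BASAL. Without the marked libraries, those of HIGH PA included, 4 of 11 genes were above 0, with a median of -0.03, and within cow 813 9 of 11, with a median of 0.10. The part of the mark or of RNA quality in this pattern was not tested. The other library measures were depth, the shares of uniquely placed reads and of the 10 most abundant genes, intron reads per exon read, and genes detected, and each had an adjusted p of 0.994 by the same exact permutation test.

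Cytosolic ribosomal protein genes were also high in the marked libraries. Of 39 tested 38 were above 0 (median 0.26, 0 called), and 22 of 39 without the marked libraries (median 0.03). RPS15, of the small subunit, had 525.7, 496, 512 and 660.03 CPM in CONTROL, and 885, 1077 and 915 CPM in the marked BASAL libraries against 534 to 893 in the other 10. Nuclear genes of oxidative phosphorylation were above 0 for 42 of 57 (median 0.14), and for 21 of 56 without the marked libraries (median -0.06). UQCRC2, of complex III, had a log2 fold change of -0.24 (SE 0.133). The mitochondrial ribosome list had 46 of 68 above 0 (median 0.10), with MRPL41 at 0.53 (SE 0.288). Its direction turned without the marked libraries, where 19 of 68 were above 0 (median -0.07), within cow 813, with 13 of 68 (median -0.09), and with cow as a replicate block, with 7 of 68 (median -0.11).

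For the unfolded protein response the share of genes above 0 depended on the fit. Of 26 genes of the unfolded protein response 13 were above 0 (median -0.02). With cow as a replicate block, which also rests on cow 813 for CONTROL, 26 of 26 were above 0 (median 0.21). Within cow 813 20 of 25 were above 0 (median 0.12). Of these 25, 6 were higher at an unadjusted p under 0.05, beside 463 of all 10491 genes. Both fits called 0 of the list. ATF4, which turns on amino acid synthesis under stress, had 274, 261, 255 and 252 CPM in CONTROL and 226, 328 and 718 CPM in BASAL, where 10 of 13 were above all CONTROL libraries (log2 fold change 0.56, SE 0.253, edgeR p = 0.0355). DDIT3, a proapoptotic factor of the same response and named here after its values were seen, had 30.3 ± 18.9 CPM in BASAL and 14.8 ± 4.22 in CONTROL. Of 23 antioxidant genes 17 were above 0 (median 0.14), of 18 p53 and apoptosis genes 9 (median 0.00), and of 15 immediate early genes 11 (median 0.20). HMOX1, CDKN1A and FOSL1 were their only members at an unadjusted p under 0.05 in the fit over all libraries. Immediate early genes had 6 of 15 higher at an unadjusted p under 0.05 without the marked libraries, and within cow 813 5 higher and 1 lower. Over all genes there were 338 higher and 169 lower of 10853 without the marked libraries. Within cow 813 there were 463 higher and 257 lower of 10491. CYP1A1, an enzyme induced through the aryl hydrocarbon receptor, had 0, 5, 1 and 2 reads in CONTROL and 0 to 38 in BASAL. The level of CYP1A1 was 1.74 ± 1.94 CPM in BASAL and 0.335 ± 0.371 in CONTROL (log2 fold change 2.46, SE 1.33, edgeR p = 0.0749).

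The other lists held 0 called genes as well. Of 16 genes of DNA methylation and chromatin 5 were above 0 (median -0.10), with 8 of 16 above 0 without the marked libraries and 8 of 16 within cow 813. EED, a core subunit of the PRC2 complex, had 33.4 ± 9.24 CPM in BASAL and 45.2 ± 5.74 in CONTROL, and KDM1B, a histone demethylase, 24.3 ± 10.6 and 32.7 ± 3.62. KDM1B was lowest in the marked BASAL libraries, at 12.4, 6.12 and 4.29 CPM. Of 23 junction and adhesion genes 13 were above 0. Both of those at an unadjusted p under 0.05 were claudins, CLDN4 (1104 ± 361 against 699 ± 184 CPM) and CLDN7 (284 ± 87.1 against 205 ± 28.3 CPM), which seal tight junctions. CLDN7 was named after its values were seen. Of 15 extracellular matrix genes 12 were above 0 (median 0.31), with COL18A1, a basement membrane collagen, at 177 ± 65.5 against 136 ± 25.9 CPM. In the WNT and FGF list 21 of 25 were above 0 (median 0.20), and TCF7, a transcription factor of WNT signalling, had the lowest p at 1.37 ± 1.08 against 0.542 ± 0.555 CPM. Among 7 imprinted genes 4 were above 0, but 1 within cow 813 and 2 with cow as a replicate block, and IGF2, a fetal growth factor, had 5.20 ± 3.48 against 3.07 ± 1.01 CPM. AQP3, a channel for water and glycerol, had 16.3 ± 13.7 against 7.72 ± 4.56 CPM. SLC7A5, a transporter of large neutral amino acids, had 67.1 ± 19.1 against 50.8 ± 12.8 CPM. Of the cell cycle list 18 of 28 were above 0, and 27 of 28 had an interval within 2-fold. The number above 0 was 12 of 28 without the marked libraries (median -0.04), 9 within cow 813, 11 with cow as a replicate block and 10 in tubular embryos.

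NPSR1, a neuropeptide receptor gene, was the sole call of DESeq2. Its reads were 135, 9, 437 and 388 in BASAL replicates 1, 6, 8 and 14, and 0 in the other 9 BASAL and in all 4 CONTROL libraries. NPSR1 is therefore present in few embryos of different cows, and an embryo of cow 813 was among them. In edgeR it had p = 0.0421 and an adjusted p of 0.887.

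Values for the same genes in HIGH PA extraembryonic tissue share the CONTROL libraries, so they are not an independent comparison. There 0 genes (0%) were called against CONTROL and 0 (0%) against BASAL. The log2 fold changes of HIGH PA minus CONTROL were -1.17 (SE 0.244) for SGK1, 2.77 (SE 0.918) for PLAU, 0.97 (SE 0.283) for IFI30 and 2.00 (SE 0.696) for HMOX1. The BASAL values for these genes were -0.81, 2.77, 0.94 and 1.73. For PDZK1 the HIGH PA value was -0.21 (SE 0.164), against -0.56 in BASAL.

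In the discs 11 BASAL and 3 CONTROL libraries were compared, and 0 of 11033 genes (0%) were called, with 460 (4.17%) at an unadjusted p under 0.05. PLAU had 112, 50.9 and 67.8 CPM in CONTROL discs and 21.6 to 995 CPM in BASAL discs, a log2 fold change of 2.46 (SE 1.16). The highest of these was disc replicate 12, which had 0 reads of the epiblast gene SOX2, against 10 to 111 in the other BASAL discs and 11 to 80 in CONTROL discs; without it 0 genes were called and 319 had an unadjusted p under 0.05. SGK1 had a log2 fold change of -0.34 (SE 0.311) in discs, APOE -0.49 (SE 0.413), SOX17 -0.50 (SE 0.327) and GATA3 -0.08 (SE 0.285). The difference of the BASAL effect between the tissues was tested in 22 embryos with both, of which 11 were BASAL and 3 CONTROL. It was called for 0 of 11388 genes (0%), with 905 (7.95%) at an unadjusted p under 0.05. Without the embryos of extraembryonic CONTROL replicates 1, 2 and 3 in turn, 836, 675 and 279 (2.4%) genes were at that threshold. Without the embryo of BASAL disc replicate 12 there were 419 (3.68%). The CONTROL disc from the embryo of extraembryonic replicate 3 was shallow, with 284848 exon reads against 2573384 and 3259392 in the others. SOX17 had a difference, extraembryonic minus disc, of 1.57 (SE 0.519, edgeR adjusted p = 0.575), and SGK1 of -0.60 (SE 0.306, edgeR adjusted p = 0.575). No gene thus passed a test of a difference between the tissues.

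**Figure D5:**
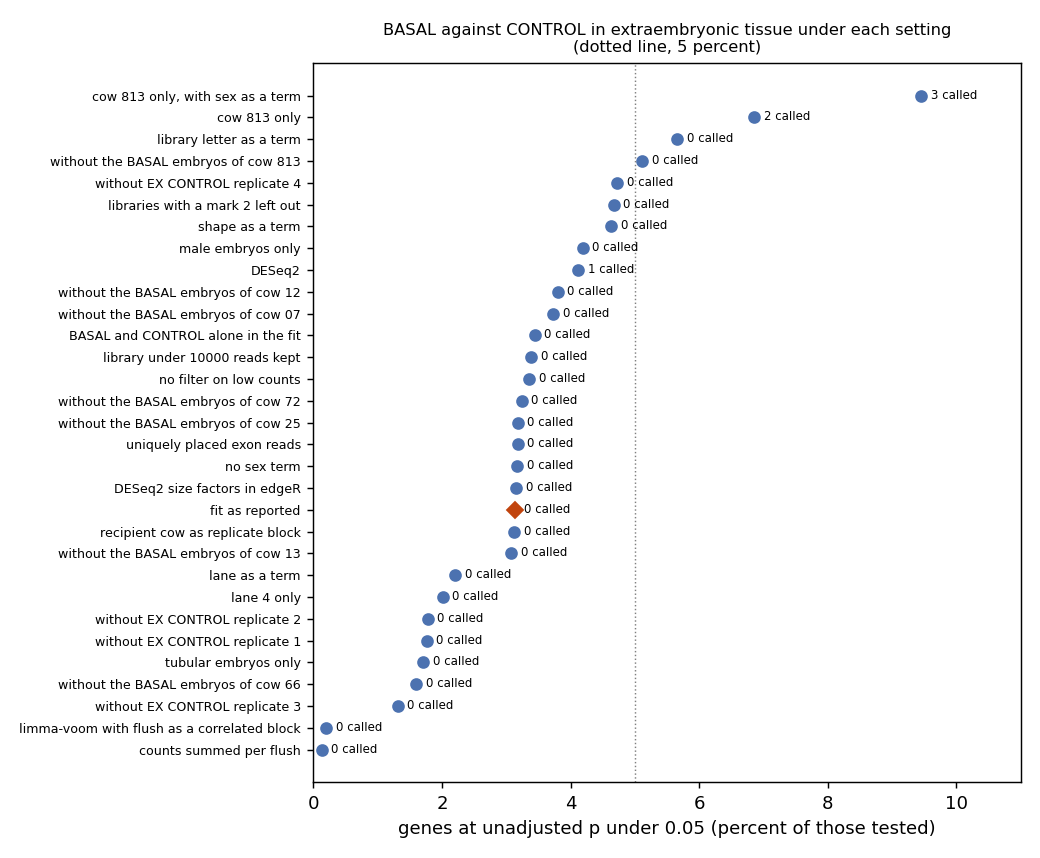
Percent of tested genes at an unadjusted p under 0.05 for BASAL against CONTROL extraembryonic tissue under each of 30 other settings (circles) and as reported (diamond, 3.13%), with the number called at an adjusted p under 0.05 beside each. The values run from 0.126% with counts summed per flush to 9.45% within cow 813 with sex as a term.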

How the data were processed

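Total RNA of single embryo parts was made into stranded mRNA libraries and sequenced as paired reads, per the labels' protocols. The table deposited by the authors holds whole-number counts of exon reads, unscaled, for 24596 features (18541 named), with counts of uniquely placed exon reads and of intron reads. Genome build UMD3.1 and DESeq2 1.10.1 are named in the submitters' processing notes; for the aligner, the name was not given in the sources used here. Coordinates are those of the table.

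Exon counts of the 13 BASAL, 4 CONTROL and 9 HIGH PA extraembryonic libraries with at least 10000 reads and a labelled sex were fitted in edgeR 4.0.16 (quasi-likelihood F test, TMM scaling, filterByExpr; factors 0.676 to 1.15), with medium and sex as terms. A call is an adjusted p under 0.05 (Benjamini-Hochberg) over all 11004 genes. Each SE was derived from the fitted log2 difference and its F statistic (the absolute value divided by the root of F). Library measures were compared by exact permutation. CPM levels use the exon reads of a library as the total, without TMM factors. Of 351 pairs of extraembryonic libraries, the shallow one included, 0 were identical. Tests were tried on simulated counts.

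The members, 36 gene lists and the rule for named genes were chosen with earlier results of these data known. The rule took the 10 genes of lowest p in each direction, the member of lowest p in each list, and IFNT2, PPARG, PLIN2, GATA4, SOX2, KDM1B and CYP1A1; the text names a part of these. Whether same-cow embryos pair across media could not be checked, since CONTROL comes from cow 813 alone, so cow served as a replicate block only in an alternative. There the comparison with CONTROL rests on libraries of cow 813. Further alternatives were DESeq2 1.42.0, limma-voom 3.58.1 with flush as a block, other scaling, filters and count columns, other covariates, subsets of embryos, and each CONTROL embryo or BASAL cow left out. Within cow 813 medium was the only term. The fit without marked libraries left out 3 BASAL and 4 HIGH PA libraries. Settings by lane, a sex term within cow 813, and the disc fits without BASAL replicate 12, were added after seeing the data. R 4.3.3, Python 3.11.15 and matplotlib 3.10.9 were used.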

Additional observations from a re-analysis of the deposited data

Results flagged for a closer look

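With 4 CONTROL libraries, 10 of 78 values tested had a library that stood far from the other 3. The rule would flag about 1 in 20 of independent, normally distributed values. These values share the same 4 libraries, and many belong to genes named for a low p, so the count cannot be compared with that rate. IGFBP6 rested on 1, 1, 1 and 4 reads in CONTROL replicates 1 to 4. CONTROL replicate 4, the ovoid female, was the distant library for 5 genes: it was high for PLAU (105 CPM, the others 59.0 to 63.4), PLIN2 (102 CPM, the others 69.4 to 72.8), PSMB10, a proteasome subunit (2.92 CPM, the others 2.06 to 2.18), and IGFBP6 (0.777 CPM, the others 0.115 to 0.167), and low for ALDH7A1 (179.6 CPM, the others 325 to 337). Replicate 2 was low for ABCA9 (0.501 CPM, the others 2.06 to 2.33), ASTE1 (2.34 CPM, the others 3.30 to 3.44) and CCNE2, cyclin E2 (15.02 CPM, the others 17.6 to 18.1). Replicate 1 was high for PLK3 (12.2 CPM, the others 9.52 to 9.68) and APOE (178 CPM, the others 134 to 137).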

How the results depend on the processing

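For BASAL against CONTROL extraembryonic tissue 30 other settings were tried, and 0 genes were called in all of them but DESeq2, which called 1 (NPSR1), and the fits within cow 813, which called 2 (PLAU and TRIB1) without and 3 (CDKN1A too) with a sex term. The cause was not tested. Leaving out each CONTROL embryo or BASAL cow gave 0 to 0 calls, but the number of genes at an unadjusted p under 0.05, 344 as reported, was 146 without CONTROL replicate 3, 196 without replicate 1, 199 without replicate 2, 527 without replicate 4, 176 without cow 66 and 558 without cow 813. It was 510 with shape as a term, 186 in tubular embryos, 543 without a filter, 623 with library letter as a term, 219 in lane 4 alone, 22 with limma-voom and embryos of a flush taken as correlated and 15 with counts summed per flush. With recipient cow as a replicate block 0 genes were called and 343 had an unadjusted p under 0.05, and the block changed no call. In discs and for the difference between tissues 0 genes were called in every setting tried.

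Of 73 named genes tested 57 kept the sign of their log2 fold change in every setting that tested them. Many were named for a low p in these same libraries or after their values were seen. The settings refit the same embryos, so a kept sign is not independent support. Within cow 813 the sign turned for IFNT2 (-0.011), UTF1 (-0.62), MSX1 (-0.83), FASN (-0.10), TSPO (-0.041), IGF2 (-0.57), GATA4 (-0.050), PPARG (0.37) and PLIN2 (0.53). With a sex term there it turned for UTF1 (-0.68), MSX1 (-1.35), FASN (-0.13), SLC16A3 (-0.16), UQCRC2 (0.021), MRPL41 (-0.086), TSPO (-0.19), IGF2 (-1.23), AQP3 (-0.28), PPARG (0.25), PLIN2 (0.41), GATA4 (-0.026), SOX17 (-0.019) and MVK (-0.14). With cow as a replicate block it turned for UTF1 (-0.63), MSX1 (-0.53), MRPL41 (-0.0063), TSPO (-0.0599), IGF2 (-0.24), IGFBP6 (-0.18), AQP3 (-0.44), PPARG (0.86) and PLIN2 (0.62). IFNT2 was at -0.51 with library letter as a term, PPARG at 0.057 in lane 4 alone and 0.031 with lane as a term, and PLIN2 at 0.071 in tubular embryos. Leaving out a CONTROL embryo or BASAL cow gave -0.27 to 0.12 for PPARG and -0.22 to 0.19 for PLIN2. The cause of these turns was not tested. Genes with a few reads a library, such as EVA1B, TST and CYP1A1, are limited by counting error.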
